A study of Mus musculus with 4 samples.

Results

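Circular RNAs (circRNAs) catalogued in the circBase database and spanning less than 5 kb of the mouse genome were described in heart tissue after sham surgery and after ischemia/reperfusion (I/R), a model in which the heart's blood supply is cut off and later returned. A circRNA entered the set when the deposited annotation gave it a circBase identifier and a host gene and its span, from acceptor to donor splice site, was under 5000 bases. The rule chose 268 of 1046 circRNAs and used no read count. The series holds 4 libraries of total RNA from hearts of C57BL/6 mice, sham 1 and sham 2 with the treatment label sham, and I/R 3 and I/R 4 with the label I/R. Neither the age and sex of the animals nor the length of ischemia and of reperfusion is given in the sources used here. Whether a group's 2 libraries stem from different mice is not stated either, and p-values therefore speak only of library-to-library spread, part of which may be technical.

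A circRNA forms when the splicing machinery joins the 3′ end of an exon to the 5′ end of the same exon or of one further upstream, a reaction called back-splicing. The product has no free ends, resists exonucleases and often outlasts the linear mRNA of its host gene, so it can accumulate in cells that divide little, such as heart muscle cells. Back-splicing is favoured by long flanking introns with sequences that pair with each other, and a read that crosses the back-splice junction is the evidence by which a circle is told from the linear transcript.

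Of the 268 short known circRNAs, 135 were listed in sham 1, 106 in sham 2, 110 in I/R 3 and 111 in I/R 4. Their spans ran from 169 to 4994 bases with a median of 2197 bases. Under 1000 bases lay 73 of them, 102 lay from 1000 to under 3000 bases and 93 at 3000 bases or more. The shortest were in Ube2g2 (169 bases, reads 0, 2, 0 and 2 in the order sham 1, sham 2, I/R 3, I/R 4), in the joint label Akap2,Pakap (179 bases, reads 3, 0, 0 and 0) and in Fgd6 (186 bases, reads 0, 2, 0 and 0). Just inside the limit were circRNAs of Cacna1c (4915 bases, reads 7, 4, 0 and 2), Arl8b (4987 bases, reads 3, 0, 0 and 2) and Acin1 (4994 bases, reads 0, 0, 3 and 0). Just outside it were those of Vac14 (5004 bases, reads 0, 0, 0 and 2), Arhgap21 (5102 bases, reads 0, 0, 2 and 0) and Erbin (5143 bases, reads 16, 12, 11 and 14). Reads are always given below in this order of libraries, and a 0 means that the circRNA was not listed in that library, where the smallest listed count was 2.

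The back-splice junction is the sequence by which each circle is recognised, and it is shown here for the circles with most reads whose exons could be identified. No genome of build mm9 was used, so exons were found by asking which run of exons of the host gene in the GENCODE annotation, mouse release 21, has exactly the span of the circRNA. Lower-case letters are the last 15 bases of the exon that donates the splice, capitals are the first 15 bases of the exon that accepts it, and both are on the strand of the gene, 5′ to 3′. Coordinates are those of the deposited files, build mm9.
Slc8a1 (chr17:82047149-82048978, minus strand, 1 exon of 1830 bases): gaacgatgaaatagtGTTGGAGCAGTTGGA
Nfix (chr8:87295683-87296214, minus strand, 1 exon of 532 bases): ttgtccacactccggGATGAGTTCCACCCG
Ep400 (chr5:111184416-111185785, minus strand, 1 exon of 1370 bases): gttatcaacgatgagGGGAACAGTACATTG
Zfp609 (chr9:65642429-65643302, minus strand, 1 exon of 874 bases): gtcaagtctgaaaagCAATGATGTTGTCCA
Ogdh (chr11:6213791-6217083, plus strand, 2 exons, 295 bases spliced): ccacagacaaacttgTCATGGGACATTTTT
Med13l (chr5:119043342-119043579, plus strand, 1 exon of 238 bases): atcatgaactgcaggGCTGAACTCACAGGA
Bbs9 (chr9:22692025-22692440, plus strand, 2 exons, 243 bases spliced): agctcatctctggagGTGGCTGTACTCCAA
Ezh2 (chr6:47526535-47527666, minus strand, 2 exons, 253 bases spliced): cgcgggactagggagAATAATCATGGGCCA
Dlc1 (chr8:38000614-38001812, minus strand, 1 exon of 1199 bases): ctgcgcaagagaaagTGGACAACATGGCAG
Among these 9 circles, 6 consist of a single exon, and 8 of the 9 donate from an exon that ends in the base G. Over all 237 short known circRNAs with a unique exon match, 184 (77.6%) donated from an exon ending in G, against 81.5% of known circRNAs of 5 to 15 kb and 84.3% of those over 15 kb.

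The libraries held 1890, 1627, 1804 and 1982 back-splice reads in all, of which the short known circRNAs held 483 (25.6%), 439 (27.0%), 459 (25.4%) and 472 (23.8%). The 95% Clopper-Pearson intervals of these shares, which cover counting error only, ran from 23.6 to 27.6%, 24.8 to 29.2%, 23.4 to 27.5% and 22.0 to 25.8%. Sham 2 was highest, I/R 4 lowest, and both sham values lay above both I/R values, with all 4 intervals overlapping. The sham mean was 26.3% ± 1.01 (SD, n = 2) and the I/R mean 24.6% ± 1.15 (SD, n = 2), and the exact two-sided permutation test over libraries gave p = 0.333, the smallest that 2 against 2 libraries allow. With the circRNAs of Ttn, which hosts no short known circRNA, taken out of the total, I/R lay 0.153 percentage points above sham (exact permutation p = 0.667). Among circRNAs with a circBase identifier alone the difference was -0.656 points, and without the Slc8a1 circle it was -2.35 points, against -1.64 points as reported.

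Reads were concentrated on a few circles. The median short known circRNA had 3 reads over the 4 libraries, 119 of the 268 had 2 reads in all, and the 10 with most reads held 582 reads, or 31.4% of the 1853. A circle of Slc8a1, the sodium-calcium exchanger that moves calcium out of the heart muscle cell, led with 23, 41, 38 and 66 reads. Scaled to the back-splice reads of the library (CPM), the sham mean was 18684.5 ± 9214 CPM and the I/R mean 27182 ± 8652 CPM (SD, n = 2 each), with sham 2 above I/R 3, so the groups overlapped. A circle of Tulp4, a tubby-like protein, followed with 26, 15, 26 and 34 reads. In CPM this circle had 13757 and 9219 in the sham libraries and 14412 and 17154 in the I/R libraries, so the groups did not overlap. It differs from the others at the top in that the deposited files place it within an intron (chr17:6137211-6139156, build mm9).

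Next came Nfix, a transcription factor of the nuclear factor I family, with 13, 14, 22 and 21 reads. Both I/R libraries lay above both sham libraries for it. Ep400, an ATPase of a chromatin remodelling complex, had 10, 14, 16 and 11 reads. Zfp609, a zinc finger protein, had 9, 9, 10 and 9 reads, the narrowest range of the 10. Ogdh, a subunit of the oxoglutarate dehydrogenase complex of the citric acid cycle, had 8, 9, 11 and 8 reads. The 4 counts of these last 3 circles overlapped between the groups.

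Med13l, a subunit of the kinase module of the Mediator complex, had 11, 9, 7 and 8 reads, with both sham libraries above both I/R libraries. Bbs9, a subunit of the BBSome that serves the primary cilium, had 4, 9, 10 and 7 reads. Ezh2, the methyltransferase of Polycomb repressive complex 2, had 6, 10, 9 and 5 reads. Dlc1, a GTPase-activating protein, had 5, 10, 6 and 3 reads. In each of the last 3 sham 2 was the higher sham library, and the groups overlapped. A back-splice junction has the same length in every circle, so these counts were not scaled by length. Whether all circles were detected equally well was not tested.

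**Figure D1:**
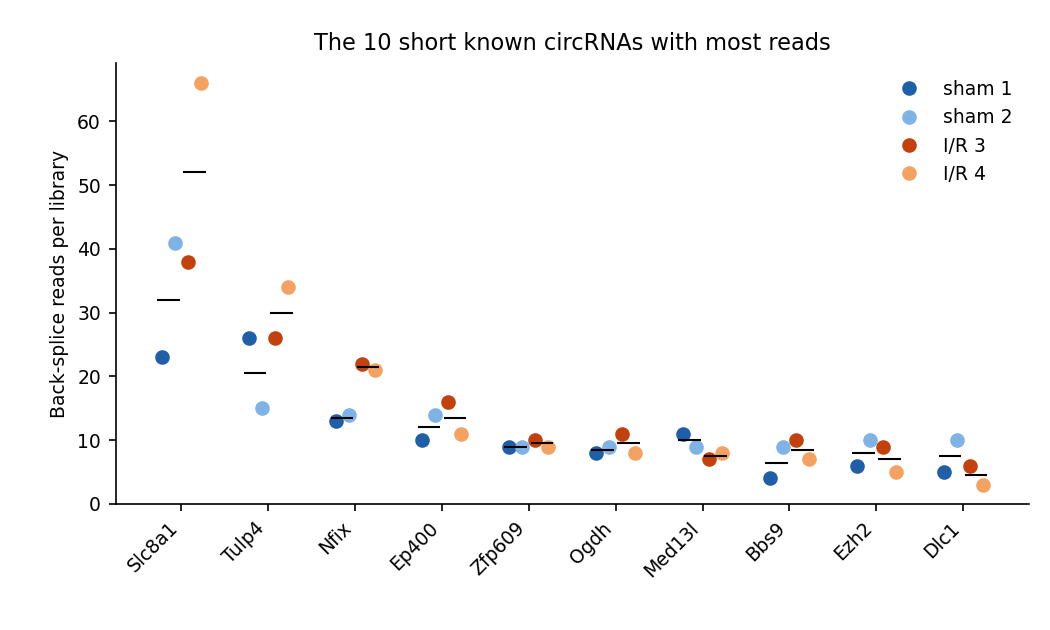
Back-splice reads (vertical axis, reads per library) of the 10 short known circRNAs with most reads (horizontal axis, host gene). Points are libraries and black bars the mean of the 2 libraries of a group; the Slc8a1 circle spans 23 reads (sham 1) to 66 reads (I/R 4), and for Nfix both I/R points lie above both sham points.

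The exon make-up could be read for 237 of the 268. For 3 more the span fitted several places in the host gene and for 28 none. As a control of the matching, adding 7 bases to every span left 3 matches, removing 7 left 5 and adding 50 left 2. The circles held few exons: 41 (17.3%) had 1 exon, 118 (49.8%) had 2, 56 had 3 and 22 had 4 or 5. Among known circRNAs of 5 to 15 kb, 1 of 222 matched had a single exon and the median was 4 exons, and over 15 kb none of 197 had a single exon and the median was 5, which a limit on the span partly fixes. The spliced length of the short circles ran from 82 to 3539 bases with a median of 329 bases, against 519.5 bases at 5 to 15 kb and 618 bases over 15 kb.

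The circled stretch began at exon 2 of the matched transcript in 87 of 237 (36.7%) and at exon 3 in 42. It never began at exon 1, and it took in the last exon of the matched transcript in 1, that of Hnrnpu, an RNA-binding protein of the nucleus. No intron follows that exon in the matched transcript, so this match by span may not be the true one. Among single-exon circles 27 of 41 (65.9%) were exon 2, against 60 of 196 (30.6%) multi-exon circles that began there. The start codon of the host lay inside 49 of the 237 circles (20.7%), 18 of them single-exon circles, including those of Slc8a1, Ep400, Zfp609, Dlc1 and Hipk3. These circles carry the annotated start of the protein, and whether any is translated was not measured.

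Long introns flanked the circles. The median intron upstream of a short known circRNA was 12929.5 bases and the median downstream 8966.5 bases, over 236 circles, while the median of the other introns of the same transcripts was 1782.75 bases. Both flanking introns were longer than the transcript's own median intron for 185 of 236 (78.4%). The same held for 84.2% of known circRNAs of 5 to 15 kb and 84.3% of those over 15 kb, so long flanking introns were shared by the classes.

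Single-exon circles carried more reads for their number. The 41 of them held 591 reads, or 31.9% of the reads of the set (135, 139, 147 and 170 by library), and without the Slc8a1 circle 25.1% of the remaining reads. The 118 circles with 2 exons held 626 reads (173, 175, 156 and 122) and the 78 with 3 or more held 393 (109, 75, 101 and 108). Of the single-exon circles 9 (22.0%) were listed in every library, against 8 of 118 (6.78%) with 2 exons and 8 of 78 (10.3%) with 3 or more. In sham 1, sham 2 and I/R 3 the 2-exon circles held more reads than the single-exon circles. In I/R 4 the single-exon circles held more, 66 of their 170 reads being those of Slc8a1.

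**Figure D2:**
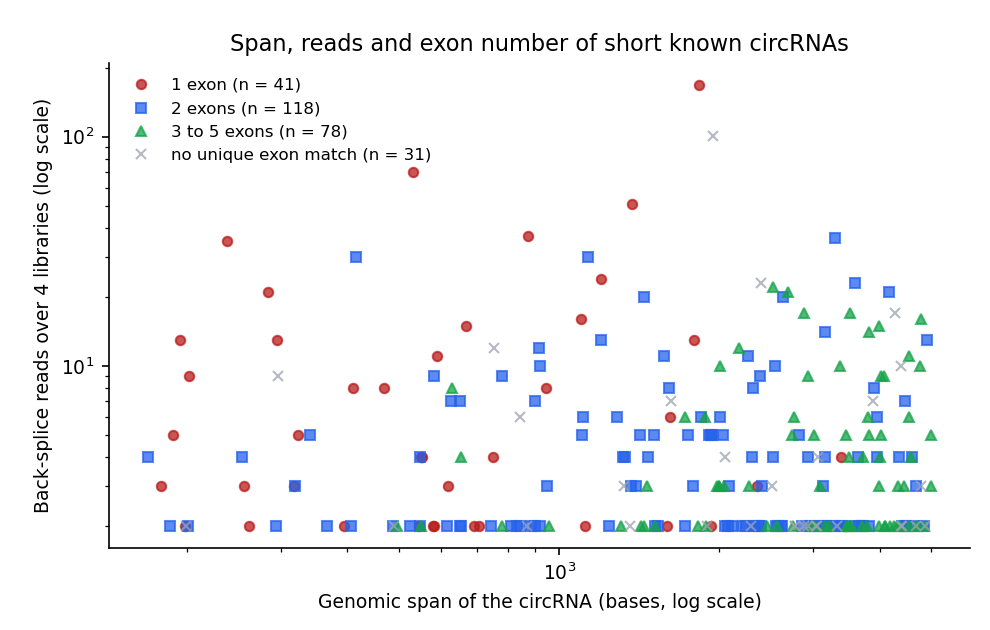
Genomic span (horizontal axis, bases, log scale) against back-splice reads over the 4 libraries (vertical axis, log scale) for the 268 short known circRNAs, with symbols for the number of exons circled. The single-exon circles lie to the left and include the circle with most reads, and the row of points at the bottom holds the 119 circRNAs with 2 reads.

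Reads did not follow span. Circles under 1000 bases held 501 reads (27.0%), those from 1000 to under 3000 bases 880 (47.5%) and those of 3000 bases or more 472 (25.5%), with medians of 3, 3 and 2 reads. Spearman's correlation between span and reads was -0.08 over the 268 circles and that between spliced length and reads was 0.05 over 237, both across circRNAs of the same 4 libraries, which are not independent replicates.

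Most of the short known circRNAs were seen in few libraries. In a single library were 156 (58.2%), which together held 360 reads (19.4%), and 119 of these had 2 reads. In 2 libraries were 58 (21.6%), in 3 libraries 26 (9.70%) and in every library 28 (10.4%), and these 28 held 873 reads (47.1%). Those in a single library divided into 51 in sham 1, 32 in sham 2, 34 in I/R 3 and 39 in I/R 4. The share in every library was 9.78% of known circRNAs of 5 to 15 kb, 14.8% of those over 15 kb and 5.58% of exonic circRNAs not in circBase. Recurrence is tied to reads by the smallest listed count of 2. A circle with 2 to 3 reads can be listed in 1 library only, which held for 147 of the short known circRNAs. Among circles with 10 reads or more, 26 of 45 short known circRNAs (57.8%) were in every library. The same share was 57.9% at 5 to 15 kb, 75.6% over 15 kb and 57.7% for exonic circRNAs not in circBase. Differences of recurrence between these classes were not tested.

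**Figure D3:**
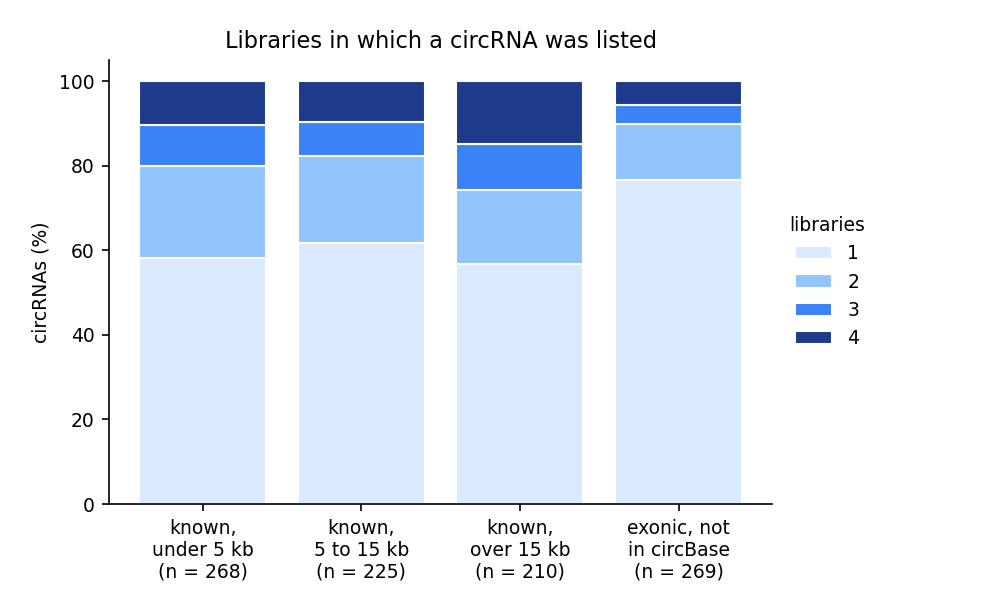
Share of circRNAs (vertical axis, percent) listed in 1, 2, 3 or 4 libraries, in 4 classes of circRNA (horizontal axis, with their numbers). Of the short known circRNAs 58.2% were in a single library and 10.4% in every library, and of the exonic circRNAs not in circBase 5.58% were in every library.

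The circular share sets the back-splice reads of a circle against the deposited non-junction reads at the same sites. The sources used here do not say how non-junction reads were counted. Whether they hold only spliced linear RNA is therefore not known. The circular share is 2 times the back-splice reads, divided by that number plus the non-junction reads, in percent. Its median over the short known circRNAs listed in a library was 8.47% in sham 1, 9.09% in sham 2, 10.9% in I/R 3 and 10% in I/R 4. Known circRNAs over 15 kb had 9.09, 8.99, 11.6 and 9.52%, so short and long known circRNAs differed by less than 1 percentage point in each library, with a mean difference of -0.186 points (exact sign-flip permutation test over libraries, p = 0.5; the smallest p that 4 libraries allow is 0.125). With reads pooled over the circles of a class instead of the median, the short circles lay lower in every library, by 1.84 points on average (a mean difference of -1.84, exact p = 0.125). The short circles had 23027, 16127 and 23335 non-junction reads in sham 1, I/R 3 and I/R 4. A single circle, that of Atp2a2, held 5907, 5534 and 8866 of these. In sham 2, which did not list it, the pooled shares were 6.33% for short and 6.51% for long circles. The pooled difference without Atp2a2 was not tested. Limited to circRNAs with at least 5 reads in the library, the short circles lay 2.93 points higher on average (exact p = 0.125), so the sign and size of this difference depend on the read minimum and on pooling. Against known circRNAs of 5 to 15 kb the mean difference was 0.208 points (exact p = 0.625).

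Exonic circRNAs not in circBase had lower medians of 3.91, 3.96, 4.11 and 4.25%. The short known circRNAs lay above them by 4.56, 5.13, 6.78 and 5.75 points, the same direction in 4 of 4 libraries (mean 5.56 points, exact sign-flip permutation p = 0.125, a comparison added after the values were seen). At 5 reads or more in the library the mean difference was 17.3 points. The hosts differed too: the median number of non-junction reads was 59, 61, 49.5 and 55 at short known circRNAs and 133.5, 148, 133 and 124 at those not in circBase. The part of host expression in this difference was not tested.

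**Figure D4:**
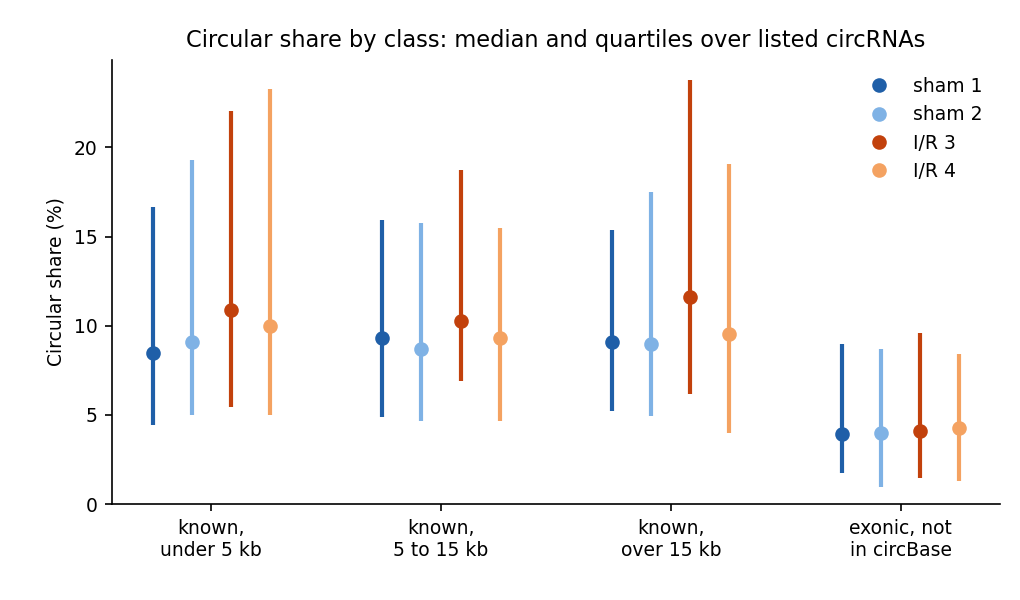
Circular share (vertical axis, percent) by class of circRNA (horizontal axis) and library (colour). Points are medians and lines the quartiles over the circRNAs listed in a library; the short known circRNAs have medians from 8.47 to 10.9% and those not in circBase from 3.91 to 4.25%.

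The circular share varied more among circles than between libraries. Over the 28 in every library the pooled share ran from 0.934% to 67.4%. The Ezh2 circle was highest, at 63.2, 71.4, 72.0 and 58.8% with 7 or 8 non-junction reads in a library. Bbs9 followed with 42.1, 62.1, 54.1 and 46.7%, and Zfp609 with 45, 43.9, 47.6 and 50%. Nfix had 35.1, 43.8, 45.8 and 36.5% and Tulp4 39.4, 27.5, 36.6 and 46.9%. Only the Zfp609 circle among these 5 had both I/R values above both sham values. At the splice sites of this most read Ezh2 circle the circular share was over 50% in every library. A second Ezh2 circle that shares a splice site with it had 25% in sham 1 and 30% in I/R 3.

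Lowest was Ogdh, at 0.938, 1.14, 1.24 and 0.605%, with 1689, 1561, 1757 and 2630 non-junction reads at its sites beside 8 to 11 back-splice reads. Paip2, a regulator of the poly(A)-binding protein, had a pooled 2.52%, Dlc1 2.76%, Exoc6, a subunit of the exocyst, 4.46% and Rere, a transcriptional corepressor, 5.61%. Atp2a2, the calcium pump of the sarcoplasmic reticulum, was listed with 6, 0, 2 and 2 reads beside 5907, 5534 and 8866 non-junction reads in the 3 libraries that listed it. Across the 28, the share fell with non-junction reads (Spearman's correlation -0.80) and rose with back-splice reads (0.54), both terms being part of the share. Circles in 1, 2 and 3 libraries had median shares of 8.60, 9.14 and 9.14%, and those in every library 15.01%.

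The 268 circles came from 254 host labels. A single circle came from 242 of these, 10 gave 2 and 2 gave 3. At 188 hosts the short circle was the only circRNA of any class, 30 also gave a known circRNA of 5 to 15 kb and 28 a known circRNA over 15 kb. Of 16 pairs from the same host, 7 shared a splice site and 9 did not overlap. Ep400 gave the circle of exon 2 alone and, in sham 1 with 2 reads, a circle sharing its acceptor side with 2 exons and 1481 bases. The deposited files place this last circle in an intron, so its exons rest on the match by span alone. Ezh2 gave a second circle of 226 bases with reads 2, 0, 3 and 0 that shared 1 splice site with the first. Efnb2, a ligand of Eph receptors, gave a single-exon circle of 284 bases with reads 9, 0, 6 and 6, listed in both I/R libraries but in only 1 sham library, and another with 4 reads in sham 1. In Cacna1c, the pore subunit of the L-type calcium channel, the circles did not overlap, and the second had 3 reads, all in sham 2. The files also give the host label Cdkn2d to circles at chr9:62941234-62941432, chr9:72078073-72081136 and, with Sema3f, chr9:107593461-107593779 (build mm9), places so far apart on the chromosome that the label cannot name the gene of all 3.

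Of the 268 circles, 48 had hosts on lists of genes grouped by function. The lists do not hold every gene of a function, and Ep400, Ezh2, Nsd2 and Rps6kb1 are on none of them. Hosts for calcium and ion handling gave 5 circles with 36, 48, 40 and 72 reads, and 168 of these 196 reads were those of the Slc8a1 circle. Transcription factor hosts gave 10 circles with 33, 35, 51 and 46 reads, led by Nfix, Zfp609 and Crebrf (4, 6, 10 and 3 reads). Listed chromatin and Mediator hosts gave 9 circles with 25, 15, 17 and 18 reads. Within the list they were led by Med13l, Arid1a, a subunit of the SWI/SNF complex (4, 4, 6 and 3), and the helicase Chd9 (3, 0, 0 and 3). The chromatin remodeller Ep400 (10, 14, 16 and 11 reads), with more reads than Med13l, is not on this list. RNA-binding hosts gave 7 circles with 9, 8, 9 and 14 reads, among them Hnrnpu (4, 2, 0 and 6) and Rbm33 (0, 2, 2 and 0).

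Listed kinase and growth signalling hosts gave 7 circles with 21, 13, 8 and 7 reads. Over circRNAs of any class the same list had 75, 74, 68 and 70 reads. Within the list the short circles were led by Hipk3, a homeodomain-interacting kinase whose exon 2 forms a circle of 1099 bases here (4, 5, 2 and 5). Map4k2 (3, 3, 4 and 2) and Dgkd (8, 3, 0 and 0) followed. The kinase Rps6kb1 (5, 3, 7 and 6 reads) is not on this list. Ubiquitin pathway hosts gave 5 circles with 3, 17, 5 and 11 reads, among them the deubiquitinases Zranb1 (0, 9, 5 and 9) and Usp3 (0, 4, 0 and 0). Sarcomere and cytoskeleton hosts had 269, 138, 235 and 310 reads over circRNAs of any class. They gave 3 short known circles with 10, 9, 2 and 0 reads, from Sptbn1, a beta-spectrin, and Camsap1. Metabolic hosts gave 2 with 10, 9, 11 and 8 reads, from Ogdh and Dlst (2 reads in sham 1), both subunits of the same enzyme complex.

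As to the cells of origin, 7 of 12 cardiomyocyte marker genes hosted circRNAs of any class, with 279, 170, 271 and 380 reads, and Slc8a1 and Atp2a2 hosted short known ones. Among 14 endothelial markers 2 were hosts (6, 7, 6 and 10 reads), and none of 15 fibroblast and matrix or 14 leukocyte markers was. No endothelial, fibroblast or leukocyte marker hosted a short known circRNA. In whole heart tissue, fewer cells of a type and less RNA per cell cannot be told apart.

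Whether the short known circRNAs differed between I/R and sham was tested per circle with edgeR's quasi-likelihood test over all 158 circRNAs with at least 10 reads, and 45 of the 268 (16.8%) had enough reads to enter. None of the 45 was called at an adjusted p of 0.05 (Benjamini-Hochberg over the 158), as none of the 158 was (0%), and the smallest adjusted p of a member was 0.660 in edgeR. At an unadjusted p under 0.05 stood 2 of 45, beside 9 of the 158 (5.7%). In edgeR these 2 were Zfp512 and Dgkd, which also had the smallest adjusted p. All their reads lay in a single group, so they met the read minimum through that group alone. Their p-values are therefore tied to that filter. DESeq2 also called none, with 2 of the 45 at an unadjusted p under 0.05 beside 3.8% of the 158. Limma-voom with the same filter called none, with 0 of the 45 at an unadjusted p under 0.05 beside 4.43% of the 158. By fitted direction 25 lay above 0 and 20 below, with a median log2 fold change of 0.016 against 0.060 over the 158. Scaled to the library's back-splice reads, I/R 3 and I/R 4 both exceeded sham 1 and sham 2 for 7 of 45 (15.6%), beside 17.7% of all tested, and both fell short of them for 10 (22.2%), beside 20.9%. These shares were near those of all circRNAs tested.

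Among the 7 higher in both I/R libraries, Zfp512, a zinc finger protein, had 0, 0, 5 and 5 reads and edgeR's adjusted p was 0.660. Nsd2, a methyltransferase of histone H3, had 2, 0, 8 and 4 reads (log2 fold change 2.45, SE 1.15). Nfix, with 13, 14, 22 and 21 reads, had a log2 fold change of 0.68 (SE 0.32). All 7 have groups apart by definition. Among the 3 just named the counts outside Nfix were small. The circle labelled Mir684-1, placed in an intron, had 2, 0, 5 and 3 reads (1.88, SE 1.25). N4bp2l2 had 4, 2, 6 and 5 reads (0.86, SE 0.56). Rps6kb1, the ribosomal S6 kinase that acts below mTOR, had 5, 3, 7 and 6 reads (0.70, SE 0.45). Apart from Zfp512 each of these had an adjusted p of 0.920 in edgeR. With 1 library left out Nfix ranged from 0.49 to 0.72. The other sizes rest on single libraries: without sham 2 they were 1.44 for Nsd2, 0.87 for Mir684-1, 0.35 for N4bp2l2 and 0.28 for Rps6kb1. Without I/R 3 the last 2 were 0.57 and 0.43, and without sham 1 they were 1.46 and 1.14. Without sham 1 Nsd2 and Mir684-1 had no listed sham read, which leaves no usable fold.

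Among the 10 lower in both I/R libraries, Dgkd, a diacylglycerol kinase, had 8, 3, 0 and 0 reads, with an adjusted p of 0.660 in edgeR. Cacna1c had 7, 4, 0 and 2 reads (log2 fold change -2.31, SE 1.17). Sptbn1, whose exon 2 of 194 bases is circled, had 5, 6, 2 and 0 reads (-2.30, SE 1.11). Both hosts serve the membrane of the muscle cell, as channel subunit and as part of its skeleton. Tcf25 had 7, 3, 2 and 0 reads (-2.18, SE 1.26). Kiz, a centrosomal protein, had 4, 4, 3 and 0 reads (-1.33, SE 1.24). Smad4, the SMAD shared by the TGF-beta and BMP pathways, had 6, 5, 4 and 2 reads (-0.83, SE 0.55). Apart from Dgkd each had an adjusted p of 0.920 in edgeR. These sizes rest on single libraries as well: without I/R 4 they were -1.39 for Sptbn1, -1.26 for Tcf25, -0.38 for Kiz and -0.43 for Smad4. Without sham 1 Tcf25 had -1.42, and without I/R 3 Smad4 had -1.54 and Cacna1c -1.54. With no listed I/R read left, Cacna1c without I/R 4 and Sptbn1, Tcf25 and Kiz without I/R 3 have no usable fold.

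At the most read circles no fitted change passed the test. Slc8a1 had a log2 fold change of 0.72 (SE 0.55), Tulp4 of 0.55 (SE 0.48) and Dlc1 of -0.70 (SE 0.56), with adjusted p of 0.920 in edgeR. Med13l had -0.40 (SE 0.33). In CPM the groups did not overlap for Med13l, nor for Tulp4, which was higher in both I/R libraries. Those of Slc8a1 and Dlc1 overlapped. Leaving out 1 library moved Slc8a1 to 0.39 (without sham 1) and 0.27 (without I/R 4). It moved Tulp4 to 1.05, 0.10 and 0.35 (without sham 1, sham 2 and I/R 4). Dlc1 went to -1.08 and -0.24 without sham 1 and sham 2, to -1.42 without I/R 3 and to -0.30 without I/R 4, and Med13l to -0.21 and -0.64 (without sham 1 and sham 2). All 4 kept their sign in these fits. The fitted direction of Ogdh (0.18), Ep400 (0.19), Ezh2 (-0.17), Bbs9 (0.40) and Zfp609 (0.093) turned when a library was left out or, for Zfp609, under other settings, so no direction is given for these 5.

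Some circles were listed in both libraries of a group and in neither of the other. Of the 268, 12 (4.48%) were listed in both sham libraries alone, beside 3.73% of all 1046, and 8 (2.99%) in both I/R libraries alone, beside 3.06% of all 1046. In 3 of each a library reached 5 reads. On the sham side these were Dgkd, Tasor (6, 3, 0 and 0), a subunit of the HUSH silencing complex, and Rev1 (2, 5, 0 and 0), a polymerase that copies past DNA damage. On the I/R side these were Zfp512, Rab11a (0, 0, 5 and 4), a small GTPase of recycling endosomes, and Pwwp2a (0, 0, 3 and 5), which binds the histone variant H2A.Z. With listing starting at 2 reads, a 0 in these circles can hide a read, so no fold is given for these circles.

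In the authors' deposited table, made with limma, 4 of the 268 (1.49%) had an adjusted p under 0.05, beside 1.05% of all circRNAs. In the authors' deposited table these were Zfp512 (adjusted p = 0.0343) and Rab11a (adjusted p = 0.0400), higher in I/R, and Dgkd (adjusted p = 0.0373) and Tasor (adjusted p = 0.0468), lower in I/R. All 4 are circles with no listed read in one of the groups, so no size of their change is given. In edgeR with no filter none of the 268 was called, beside 0.287% of all 1046, and 8 had an unadjusted p under 0.05, beside 2.77%. The Slc8a1 circle had a log2 fold change of 0.65 and an adjusted p of 0.0836 in the authors' deposited table.

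At the splice sites of the 28 circles listed in every library, the non-junction reads were tested in the same way over the 102 such circRNAs. The non-junction reads of 2 of the 28 fell, beside 8.82% of the 102, and 11 of 28 had an unadjusted p under 0.05, beside 26.5%. Slc8a1 had 497, 672, 279 and 282 non-junction reads, every I/R value below every sham value (log2 fold change -0.97, SE 0.18, adjusted p = 3.37e-05 in edgeR). Map4k2, a kinase of the stress-activated MAP kinase cascade, had 100, 120, 61 and 46 (-0.95, SE 0.22, adjusted p = 0.000563 in edgeR), again with the groups apart. The median over the 28 was -0.026 against -0.036 over the 102, and without TMM scaling it was -0.223 against -0.233. Both calls are lost without sham 2 (adjusted p of 0.0597 for Slc8a1 and 0.0528 for Map4k2 in edgeR), and Map4k2 also without I/R 4 (0.194). Nfix, whose back-splice reads were higher in both I/R libraries, had a non-junction log2 fold change of 0.65 (SE 0.24, adjusted p = 0.0546 in edgeR). Vav3, a guanine nucleotide exchange factor, had 46, 44, 33 and 20 non-junction reads beside 4, 5, 8 and 5 back-splice reads.

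The ratio of circular to non-junction reads changed at Slc8a1 alone among the 28, beside 1 of 102 (0.98%) in all and 3.92% at an unadjusted p under 0.05. Its circular share was 8.47, 10.9, 21.4 and 31.9%, so both I/R libraries lay above both sham libraries (9.67% ± 1.70 and 26.6% ± 7.41, SD, n = 2 each). The log2 change of the ratio was 1.65 (SE 0.32, adjusted p = 0.0484, edgeR quasi-likelihood test of the interaction of read kind and group). The non-junction reads of Slc8a1 passed the test and its back-splice reads did not. The call is lost in edgeR when any library is left out, with adjusted p from 0.0672 to 0.963 and log2 changes from 1.19 to 2.03. Nfix, in contrast, had a log2 change of the ratio of -0.0076 (SE 0.22). Its fitted changes were 0.68 for circular and 0.65 for non-junction reads, neither of which passed the test. Circular reads of cardiomyocyte marker hosts overlapped between the groups (279, 170, 271 and 380), and the part of cell make-up in the Slc8a1 change was not tested.

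**Figure D5:**
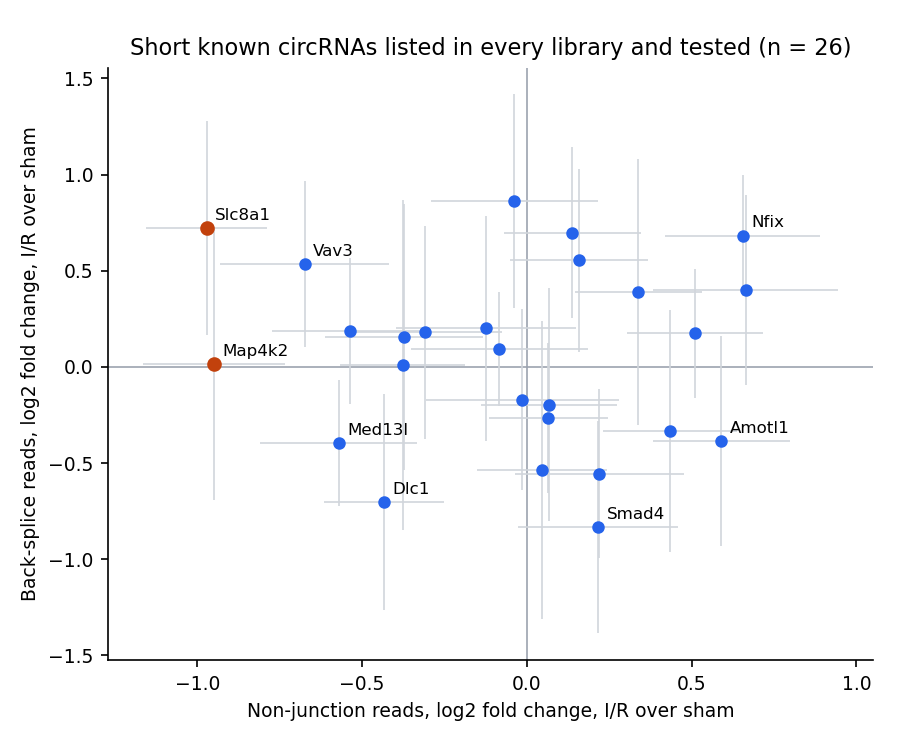
Log2 fold change, I/R over sham, of non-junction reads (horizontal axis) and of back-splice reads (vertical axis) for the 26 short known circRNAs that were listed in every library and had at least 10 back-splice reads; lines are standard errors. Slc8a1 and Map4k2 (orange), at -0.97 and -0.95 on the horizontal axis, are the 2 whose non-junction reads passed the test.

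Summed over the 28 circles, the circular share was 7.55, 8.41, 9.94 and 8.85%. The sham mean was 7.98% ± 0.609 and the I/R mean 9.40% ± 0.767 (SD, n = 2 each), a difference of 1.42 points with both I/R values above both sham values (exact permutation p = 0.333, the smallest possible). Without Slc8a1 the values were 7.43, 7.98, 8.99 and 6.97%, the groups overlapped, and the difference was 0.272 points (exact permutation p = 1). Without Ogdh, which holds the most non-junction reads, it was 4.56 points.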

How the data were processed

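The series holds 4 libraries of total RNA from mouse heart. The values are the authors' deposited per-library lists of circRNAs, with whole-number counts of back-splice and non-junction reads. The authors also deposited a circular share per circRNA as a fraction, which equals 2 times the junction count over itself plus the non-junction count to within 0.0005. Per the file headers, the authors' limma table holds log2 fold changes and mean log2 levels, p-values, and a moderated t and a log odds score per circRNA. BWA 0.7.5a-r405, HTSeq 0.9.1 and build mm9 are named in the submitters' processing notes; the circRNA caller and its filters are named in none of the sources used here. A library's smallest listed count was always 2, and the matrix and the per-library lists differed in 0 cells.

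Libraries held 1890, 1627, 1804 and 1982 back-splice reads, so most members rest on a few reads and intervals cover counting error only. Of 709 known circRNAs, 703 had a host, and 3 known ones under 5 kb without a host were left out. The members, the gene lists and the tests were chosen with earlier results of these data known.

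Counts were fitted over the whole table in R 4.3.3 with edgeR 4.0.16 (quasi-likelihood test, TMM scaling, at least 10 reads and 2 libraries, Benjamini-Hochberg, threshold 0.05), and limma 3.58.1 and DESeq2 1.42.0 served as alternatives. Non-junction reads and the ratio were fitted over the 102 circRNAs listed in every library, with TMM factors within each kind of read, a choice made after the data were seen. Single values per library were compared by exact permutation with scipy 1.17.1. Programs were tested on simulated data. A refit with limma-voom, TMM and no filter matched the deposited table to within 5.0e-08. Exons and junction sequences came from GENCODE mouse release 21, on another build than mm9, by matching span lengths within the host gene; no coordinate was converted. Junctions on chromosome 18 are not shown.

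Named circles are those past an adjusted p of 0.05, the 10 with most reads, up to 6 per direction by smallest p among those whose groups did not overlap, the 5 of highest and 5 of lowest circular share, the 3 at each end of the span and just past the limit, the first 5 hosts with several circles, and the 3 of each list with most reads, some of which are not reported here. Tasor, Rab11a, Rev1, Pwwp2a and Vav3 were named after their values were seen. Alternatives were DESeq2, limma-voom, no scaling, no filter, a minimum of 20 reads, other subsets and leaving out each library.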

Additional observations from a re-analysis of the deposited data

How the results depend on the processing

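No paired analysis was possible because the sham and I/R libraries share no replicate number. The share of reads held by the short known circRNAs was lower in I/R except without circRNAs of Ttn, where the difference was 0.153 points, and their circular share against known circRNAs over 15 kb turned to 2.93 points at 5 reads or more per library and was -1.84 points when pooled. For those of the 28 circles spanning below 3000 bases, the pooled circular share differed by 5.56 points between the groups, against 1.42 over all 28. That limit leaves out Ogdh (3293 bases), and leaving out Ogdh alone gave 4.56 points. It keeps Slc8a1, and leaving out Slc8a1 alone from the 28 gave 0.272 points. No short known circRNA was called in edgeR, DESeq2 or filtered limma-voom, nor without any library, but 4 were in limma-voom with no filter, a setting added after seeing the data (Zfp512, Dgkd, Rab11a and Tasor, beside 11 of all 1046). Leaving out a library moved the circles called by non-junction reads between 0 (without sham 2) and 5 (without I/R 3; Dlc1, Map4k2, Ogdh, Slc8a1 and Vav3), with 3 without sham 1 and 1 without I/R 4, while the calls over all 102 were 2, 8, 7 and 1 in that order against 9, and those called by the ratio to 0 each time; the cause was not tested beyond the fewer libraries. Scaling the ratio with TMM factors over both kinds of read, added after seeing the data, gave Slc8a1 1.48 (adjusted p = 0.00316 in edgeR). Fitted back-splice directions turned for Ogdh (-0.23 without I/R 3; up to 0.39 with another library left out), Ep400 (-0.26 without I/R 3; up to 0.43), Ezh2 (0.13 without sham 2, 0.19 without I/R 4; down to -0.80), Bbs9 (-0.029 without sham 1, -0.034 without I/R 3; up to 0.97) and Zfp609 (-0.029 without TMM, -0.031 at 20 reads or more, -0.019 without sham 2, -0.14 without I/R 3; up to 0.17). Without TMM scaling 21 of 45 lay above 0 and 24 below, against 25 and 20, and the median of all 158 log2 fold changes moved from 0.060 to -0.044. Of the other settings, 42 of those on the main comparisons and 197 of those on single circles kept direction and side of the threshold. Depth limits the set: 223 of 268 circles had under 10 reads and could not enter the test.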
